A study of Mus musculus with 89 samples.

Results

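The comparison examined here was that of 3 lung RNA samples from OVA-challenged mice exposed to CuO COOH at the dose labelled 10 with 8 samples from OVA-challenged mice that received no nanomaterial, 11 of the 89 samples of the series. The samples were grouped by their labels, and they were chosen with earlier results of these data known. CuO COOH is copper oxide carrying carboxyl groups on its surface. All 11 samples came from female BALB/c mice aged 6 to 8 weeks that had been sensitised by intraperitoneal injection of ovalbumin (OVA) in alum and were then challenged with OVA, so that the controls also had an allergic airway inflammation. The material was aspirated into the airways on 4 consecutive days and the lungs were collected 24 h after the last aspiration. The labels give the dose in one field as 10 μg/day and in another field in milligrams, and it is called dose 10 below. Further groups enter some comparisons: 3 samples with CuO COOH 10 and 7 controls among sensitised mice challenged with phosphate-buffered saline (PBS), and, among OVA-challenged mice, 3 samples each with CuO COOH 2.5, CuO COOH 40 and unmodified CuO 10. Each sample was a pool of RNA from 2 samples of lung tissue, and the labels do not tie the pools to single animals. For each group 8 mice were listed, but there were 8 OVA control pools of 2 samples each. Thus either some mice gave several of these samples or more than 8 control mice were used, and which was the case is not known. The p-values below therefore measure the spread between pools, and these pools may not be independent animals.

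In mice sensitised to OVA and challenged through the airways, helper T cells that secrete interleukin 4, 5 and 13 drive an influx of eosinophils, and the airway epithelium turns to making mucus. Neutrophils enter the lung by another route, following ligands of the receptor CXCR2, and cytokines of the interleukin 6 and interleukin 1 families induce acute phase proteins in liver and lung. Copper taken up by cells is bound by metallothioneins, whose genes are switched on by metal through the factor MTF1, while oxidants and haem induce haem oxygenase and ferritin. Whole lung RNA mixes all of these cells, and fewer cells of a type cannot be told apart from less RNA per cell.

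RNA was hybridised to 2-colour arrays, with 1 sample in each dye, on 6 slides. The exposed samples and OVA control replicates 1 to 4 lay on slides 1 to 3, and OVA control replicates 5 to 8 on slides 4 to 6. Median foreground intensity was 92 to 192 in the exposed samples and 99 to 189 in OVA control replicates 1 to 4. It was lower, 66.5 to 89.5, in OVA control replicates 5 to 8, whose slides held no exposed sample. The share of spots well above background was 63.5 to 67.3% in the exposed samples and 50.4 to 68.5% in the controls. Correlations between samples were 0.979 to 0.997 over all genes, and no spot was saturated. Exposed replicate 1 was labelled with Cy5 and shared its array with OVA control replicate 2, whereas exposed replicates 2 and 3 were labelled with Cy3 and shared arrays with samples of other groups. Fold changes were estimated with dye and array as terms, so the array of exposed replicate 1 compared it directly with a control. Leaving out either sample of that array changed the number of differentially expressed genes (DEGs) from 152 to 6, as described at the end. Values of single samples are log2 intensities after dye, slide and array position were removed, and they are thus not on exactly the scale of the fitted changes.

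Of 22851 genes tested, 152 were DEGs in the exposed samples against the OVA controls, 0.665% of all genes, at a limma adjusted p (Benjamini-Hochberg) under 0.05 and a change above 1.5-fold. Of these, 100 were higher, 0.438% of the genes tested, and 52 were lower, 0.228%. Half-widths of the 95% intervals of log2 fold changes had a median of 0.28. The values of the 3 exposed samples lay entirely on one side of the 8 controls in 112 of the 152 DEGs, which was the case in 6.07% of all genes. Genes of the acute phase, of myeloid cells and of the extracellular matrix stood among the higher genes, and haemoglobin and ribonuclease genes among the lower. Exposed replicate 2 was the exposed sample nearest the controls in 10 of the 12 most raised genes and in 6 of the 8 most lowered genes with groups apart. These leading genes were chosen among DEGs whose groups lay apart after dye and array were removed. The lack of overlap described for them below was thus a condition of their choice.

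**Figure D1:**
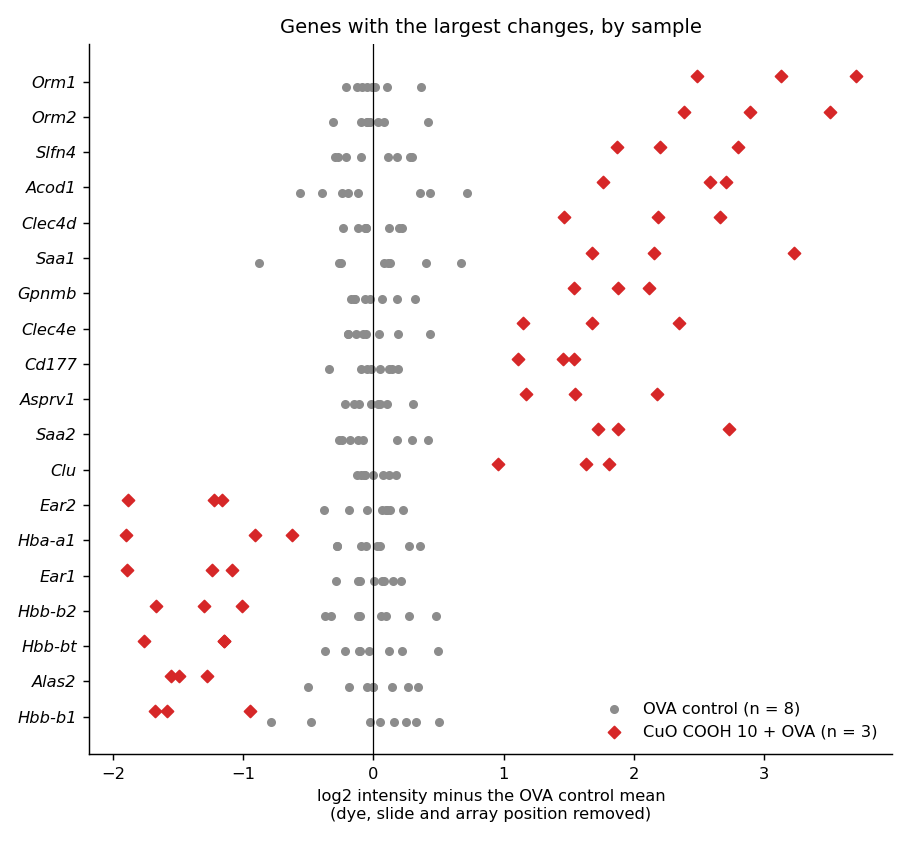
Log2 intensity of the leading raised genes and of the leading lowered globin and listed genes in each sample minus the mean of the 8 OVA controls, with dye, slide and array position removed; grey points are OVA controls and red diamonds the 3 exposed samples. The genes were chosen among DEGs with groups apart, so the exposed samples lie on one side of all controls by choice. The distance is largest for Orm1, with exposed values of 9.54 to 10.76 against 6.83 to 7.41 before the mean was subtracted.

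Of the genes of the acute phase, those for orosomucoids showed the largest change of the comparison. Orm1, which encodes a lipocalin-like plasma protein of the acute phase, had values of 10.18, 9.54 and 10.76 in exposed replicates 1, 2 and 3, and from 6.83 through a median of 7.02 to 7.41 in the controls. Its log2 fold change was 3.35 ± 0.48 (SE; limma adjusted p = 0.00129). All 3 exposed samples were above every control by more than the whole range of the controls. Its neighbour Orm2 rose by 3.26 ± 0.46 (adjusted p = 0.00129), with exposed values of 9.47, 8.96 and 10.08 against 6.26 to 7.00 in the controls.

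The serum amyloid A genes, whose products bind lipids and rise with inflammation, were higher too. Saa1 had values of 13.27, 12.79 and 14.35 against 10.23, 11.21 and 11.79 (lowest, median and highest control), a change of 2.33 ± 0.45 (adjusted p = 0.0138). Saa2 had values of 9.45, 9.60 and 10.45 against 7.45 to 8.14 and rose by 1.84 ± 0.42 (adjusted p = 0.0362). Saa3, the form made in tissues outside the liver, had a log2 fold change of 2.10 with an adjusted p of 0.0988 and was not a DEG. Orm and Saa genes are each close copies of one another, and an array probe can bind the RNA of a neighbour, so the values of single copies are uncertain. Of the 21 genes listed for interleukin 6 and the acute phase, 6 rose and none fell: Orm1, Orm2, Saa1, Saa2, the haemoglobin scavenger haptoglobin (Hp, 1.18 ± 0.16, adjusted p = 0.00128) and the haem scavenger haemopexin (Hpx, 1.16 ± 0.27, adjusted p = 0.0421). Their median log2 fold change was 0.56, against 0.00 over all genes tested, and 20 of the 21 were above 0. The mean level of the list was 9.87 to 10.44 in the exposed samples and 9.07 to 9.45 in the controls.

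Genes of neutrophils and other myeloid cells rose in part. The gene with the smallest p of the whole comparison was Clec4d, a C-type lectin of neutrophils and macrophages that recognises fungal and mycobacterial glycolipids. Its values were 11.17, 10.45 and 11.64 in the exposed samples and 8.74, 8.92 and 9.20 in the controls, a change of 2.61 ± 0.22 (limma adjusted p = 4.54e-07). Clec4e, the lectin Mincle that pairs with it, had values of 9.51, 8.98 and 10.18 against 7.63 to 8.27 and rose by 1.89 ± 0.35 (adjusted p = 0.0107). The exposed and control values did not overlap for either lectin. The related Clec4n, also known as dectin-2, rose by 0.88 ± 0.16, and Clec5a by 0.72 ± 0.14, both named after their values were seen.

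Among receptors of neutrophils, Cxcr2 (9.77, 9.37 and 10.05 against 8.02 to 8.70) rose by 1.66 ± 0.36 (adjusted p = 0.0279). Cxcr1 rose by 0.82 ± 0.19, although it was above background in only 4 of the 8 controls. Il1r2, a decoy receptor for interleukin 1, rose by 1.51 ± 0.31. Cxcl2, a neutrophil attractant and ligand of Cxcr2, rose by 1.02 ± 0.24 and was above background in 5 of 8 controls. Its call was lost in 15 of 25 alternative settings, with changes of 0.44 to 1.65. Of the 12 genes listed as neutrophil attractants, their receptors and growth factor, 3 rose (Cxcr2, Cxcr1 and Cxcl2), with a list median of 0.28. Cd177, a surface protein of neutrophils, had values of 8.18, 7.84 and 8.26 against 6.38 to 6.91 and rose by 1.87 ± 0.35. Asprv1, a protease of skin that neutrophils also make, rose by 1.86 ± 0.38.

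The neutrophil marker list held a spread of values. Of 15 markers tested, 3 rose (Clec4e, Il1r2 and the collagenase gene Mmp8, 1.56 ± 0.29), none fell and 12 were not DEGs, with a median log2 fold change of 1.37. The calgranulins S100a8 and S100a9 had changes of 1.43 and 1.61 with adjusted p of 0.198 and 0.124. The granule genes, which are transcribed in bone marrow precursors, were near 0, with Camp at 0.22, Ngp at -0.05, Mpo at -0.06 and Elane at -0.12. The mean level of the markers was 9.57 to 9.97 in the exposed samples and 8.90 to 9.34 in the controls, and its part in the other results was not tested.

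Macrophage genes rose in a few members. Acod1, which makes itaconate in activated macrophages, had values of 11.24, 10.30 and 11.12 in the exposed samples and 7.97, 8.38 and 9.25 in the controls, and rose by 2.70 ± 0.57 (limma adjusted p = 0.0208). Gpnmb, a transmembrane glycoprotein of lipid-laden and phagocytosing macrophages, had values of 10.60, 10.35 and 10.01 against 8.30 to 8.79 and rose by 2.24 ± 0.42 (adjusted p = 0.0111). Slfn4, a gene of myeloid cells that interferon induces, had values of 10.14, 9.21 and 9.54 against 7.04 to 7.63 and rose by 2.84 ± 0.53 (adjusted p = 0.0107). These 3 genes, chosen among DEGs with groups apart, separated all exposed samples from all controls. Cd14, the coreceptor for endotoxin, rose by 1.04 ± 0.21 and was the single DEG among 12 markers of monocytes and macrophages (median 0.31). Of 15 genes of lipid-handling and alveolar macrophages, 2 rose, Gpnmb and the secreted phosphoprotein Spp1, and the list median was -0.23, with the scavenger receptor Marco at -0.94.

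Spp1, which encodes osteopontin, had exposed values of 14.35, 13.21 and 14.14, and the controls ran from 12.45 through 13.26 to 13.92. Exposed replicate 2 lay inside the control range, so the groups overlapped although the fitted change was 1.37 ± 0.24 (adjusted p = 0.00832). Within the slides, exposed minus control was 1.17 on slide 1, -0.26 on slide 2 and 0.41 on slide 3. The chemokine Ccl3 rose by 1.79 ± 0.34, named after its values were seen. None of the 5 genes listed for the monocyte receptor CCR2 and its ligands passed the test, and Ccl2 had a change of 1.80 ± 0.46 (adjusted p = 0.0624) and Ccl7 of 1.83 ± 0.46 (adjusted p = 0.0608). Ccl2 passed in 9 of 25 alternative settings and Ccl7 in 6, so the absence of a call here depended on the fit.

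Clu, which encodes the secreted chaperone clusterin, was also raised. Its exposed values of 15.09, 14.42 and 15.27 were above controls of 13.33 to 13.63, and it rose by 1.80 ± 0.25 (adjusted p = 0.00109).

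Metal-binding and iron-handling genes rose in a narrow set. Mt2, a metallothionein that binds copper and zinc, had values of 14.07, 13.39 and 14.27 in exposed replicates 1, 2 and 3, and the controls ran from 12.38 through 13.02 to 13.47. It rose by 1.09 ± 0.23 (limma adjusted p = 0.0198), and exposed replicate 2 lay within the control range. Mt1, its neighbour on the chromosome, had values of 11.42, 10.97 and 11.43 against 10.19, 10.60 and 10.88 and rose by 0.72 ± 0.14 (adjusted p = 0.0140), with no overlap. The zinc importer Slc39a14 rose by 0.81 ± 0.18, with overlapping groups. The calls of Slc39a14 and Mt2 were lost in 13 and 11 of the 25 alternative settings. The other 12 of 15 metallothionein and copper-handling genes did not pass the test, and the list median was 0.03.

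The promoters of the metallothioneins are shown because metal induces both genes through short elements there. The windows run from 250 bases before the start to 50 after it, taken from RefSeq on GRCm38.p6. Capitals mark the core of the metal response element, TGCGCNC or TGCACNC, searched on both strands. The window of Mt1 is chr8:94178839-94179138 on the + strand, and that of Mt2 is chr8:94172368-94172667 on the + strand.
Mt1: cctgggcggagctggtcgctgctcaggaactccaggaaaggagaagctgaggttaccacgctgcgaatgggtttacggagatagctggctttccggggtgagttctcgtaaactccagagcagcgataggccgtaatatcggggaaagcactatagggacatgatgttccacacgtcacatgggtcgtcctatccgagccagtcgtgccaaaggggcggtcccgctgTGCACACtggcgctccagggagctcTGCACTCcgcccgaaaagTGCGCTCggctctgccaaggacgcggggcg
Mt2: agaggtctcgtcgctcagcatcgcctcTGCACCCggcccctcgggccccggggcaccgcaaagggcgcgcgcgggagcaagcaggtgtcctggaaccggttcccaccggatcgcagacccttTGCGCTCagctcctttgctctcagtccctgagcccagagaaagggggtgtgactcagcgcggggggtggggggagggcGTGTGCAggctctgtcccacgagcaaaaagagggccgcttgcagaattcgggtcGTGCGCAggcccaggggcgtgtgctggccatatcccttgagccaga
The Mt1 window held 1 core of the first form and 2 of the second, and the Mt2 window held 2 of each form. Of 32851 promoter windows searched, 25.7% held either core. Of 24 DEGs among the pathway lists, 18 had a window and 4 of these held a core, namely Mt1, Mt2, Gstm1 and Tnc. A core is a match of letters and not a measured binding site.

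Hmox1, haem oxygenase, which degrades haem and is induced by oxidants and by metals, had values of 13.05, 12.08 and 12.84 against 10.94, 11.69 and 11.93. It rose by 1.39 ± 0.23 (adjusted p = 0.00454), and its 3 exposed samples stood above every control. Fth1, the heavy chain of ferritin, rose by 1.12 ± 0.17 (adjusted p = 0.00188), with values of 17.05, 16.69 and 17.52 against 15.998 to 16.44. Slc7a11, the cystine importer, rose by 0.88 ± 0.18 with overlapping groups. The glutathione transferase Gstm1 fell by 0.75 ± 0.17 (adjusted p = 0.0340). Of 21 targets of the antioxidant factor Nrf2 that were tested, 3 rose, 1 fell and 17 were not DEGs, with a median of 0.15. The classical targets Nqo1 and Gclc had changes of -0.11 and 0.56. Further genes of iron, named after their values were seen, were the iron exporter Slc40a1 (0.70 ± 0.14), the phagosomal metal transporter Slc11a1 (0.90 ± 0.18) and the metalloreductase Steap4 (1.00 ± 0.23), each of them higher.

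Genes of matrix remodelling had the largest share of DEGs among the pathway lists with more than 10 genes. Of 17 genes, 7 rose, none fell and 10 were not DEGs, and the list median was 0.80. The proteases were Mmp8, Mmp9 (1.34 ± 0.29) and Mmp3 (1.21 ± 0.20, adjusted p = 0.00592), of which Mmp8 and Mmp9 are stored by neutrophils. The structural genes were the collagens Col1a2 and Col5a1, the glycoprotein tenascin C (Tnc) and the cross-linking enzyme Lox. Col1a2, a chain of type I collagen, had values of 15.43, 15.24 and 15.35 against 14.41, 14.72 and 14.78 and rose by 0.92 ± 0.19 (adjusted p = 0.0198). Col5a1 rose by 0.89 ± 0.15, Tnc by 0.86 ± 0.19 and Lox by 0.80 ± 0.15. The protease inhibitor Timp1 had a change of 0.91 ± 0.42 (adjusted p = 0.464).

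**Figure D2:**
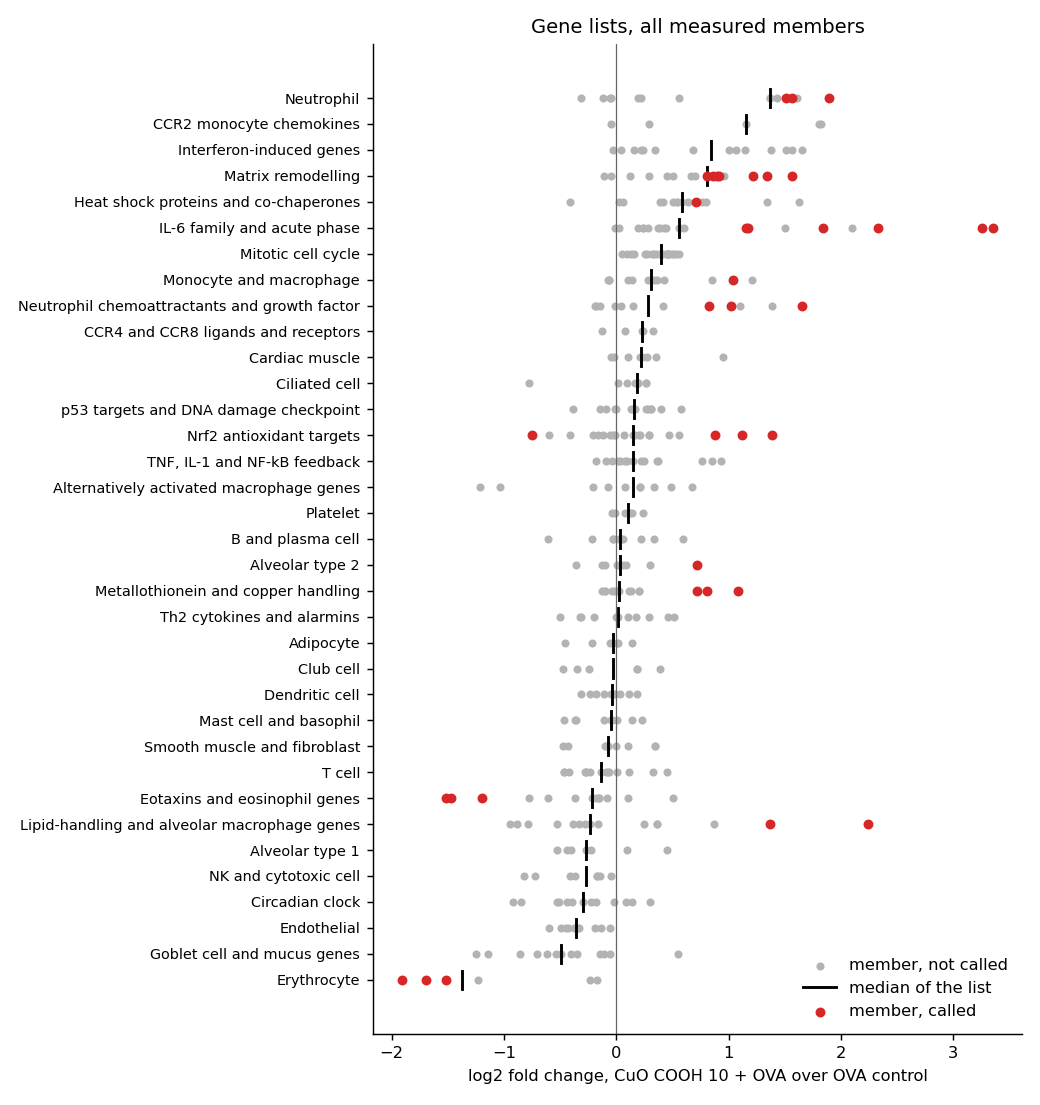
Fitted log2 fold changes (exposed over OVA control) of all measured members of each gene list, ordered by list median; each point is a gene, red points are DEGs and the black bar is the median. The neutrophil list has the highest median, 1.37, and the erythrocyte list the lowest, -1.37, while the Th2 list has a median of 0.02.

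The lower genes were led by haemoglobins and other genes of red cells. Hbb-b1, a beta-globin, had values of 11.26, 11.99 and 11.35 in exposed replicates 1, 2 and 3, and 12.15, 13.04 and 13.44 as lowest, median and highest of the controls, and fell by 2.08 ± 0.42 (limma adjusted p = 0.0176). Alas2, the first enzyme of haem synthesis in red cell precursors, had values of 9.60, 9.88 and 9.66 against 10.66, 11.16 and 11.50 and fell by 1.91 ± 0.34 (adjusted p = 0.00832). Every exposed sample was below every control for these genes, which were chosen among DEGs with groups apart. Hbb-bt fell by 1.70 ± 0.36, Hbb-b2 by 1.68 ± 0.31 and Hba-a1 by 1.52 ± 0.33, and the globin copies cannot be separated with certainty by their probes. Of 6 red cell markers tested, 3 fell (Alas2, Hbb-bt and Hba-a1) and all 6 were below 0, with a median of -1.37. However, 2 of the 6 were above background in none of the 11 samples, so their signs carry little weight. The mean level of the markers was 9.30 to 9.66 in the exposed samples and 10.14 to 10.67 in the controls. The amount of blood left in the tissue was not measured, and its part in these values was not tested.

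The other leading falls were in the eosinophil-associated ribonucleases, which are made by eosinophils and, for some copies, by alveolar macrophages. Ear1 had values of 11.39, 11.54 and 10.74 against 12.35, 12.67 and 12.85 and fell by 1.52 ± 0.28 (adjusted p = 0.0111). Ear2 had values of 13.25, 13.31 and 12.59 against 14.09, 14.55 and 14.70 and fell by 1.47 ± 0.31 (adjusted p = 0.0205). Ear10 fell by 1.19 ± 0.25. No exposed sample reached the controls in any of the 3 genes, which are near-identical copies with probes that may share RNA. They were the DEGs of a list of 13 eotaxin and eosinophil genes with a median of -0.22. The granule genes that define eosinophils did not fall with them, with Epx at 0.50 (adjusted p = 0.464) and Prg2 at -0.08 (adjusted p = 0.970), and the surface markers Ccr3 and Siglecf were at -0.18 and -0.22. The eotaxins Ccl11 (-0.15 ± 0.24) and Ccl24 (-0.61 ± 0.40) were not DEGs.

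The lists of Th2 cytokines and of goblet cell genes held no DEG. Of 11 Th2 cytokines and alarmins, 0 passed the test, with a median of 0.02. Il13 had a change of 0.02, with a 95% interval of -0.24 to 0.27, and Il4 of 0.00, with an interval of -0.61 to 0.60. The filter on dim probes left Il13 out, and 2 of the 11 genes were above background in none of the 11 samples. A change near 0 in such dim genes does not show that their expression was unchanged. The alarmin gene Il33 had a change of 0.46 (interval 0.05 to 0.87, adjusted p = 0.391). Of 13 goblet cell and mucus genes, 0 passed and 12 were below 0, with a median of -0.50. The mean level of that list was 9.98 to 10.97 in the exposed samples and 11.08 to 11.78 in the controls. The mucin Muc5ac had values of 10.17, 10.41 and 8.39 against 10.61, 11.17 and 11.63, and a fitted change of -1.15 ± 0.55 (adjusted p = 0.496), and it passed in 3 of 25 alternative settings. The calcium-activated chloride channel regulator Clca1 had values of 17.33, 16.21 and 14.33 against 16.37 to 18.60 and a change of -0.62 with a standard error of 1.24. The exposed samples thus differed from one another in Clca1 by more than any named gene, with replicate 3 lowest for it and for Muc5ac, and these data set wide limits on its change.

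Other groups had few DEGs. No gene passed among 22 mitotic genes (median 0.40, all above 0), 14 interferon-induced genes (median 0.84, with Cxcl10 at 1.66 and an adjusted p of 0.326), 15 genes of TNF and interleukin 1 signalling, 14 p53 targets, 10 genes of alternatively activated macrophages or 13 clock genes (median -0.30). Of 17 heat shock genes, the endoplasmic reticulum chaperone Hspa5 rose by 0.71 ± 0.15 with overlapping groups, and 16 of the 17 were above 0 with a median of 0.59. Sftpd, a surfactant protein of alveolar type 2 cells, rose by 0.72 ± 0.14 (adjusted p = 0.0165), and 7 further type 2 markers did not pass. No marker passed for dendritic cells, T cells, NK cells, B cells, mast cells, alveolar type 1, club, ciliated, endothelial or smooth muscle cells, platelets, cardiac muscle or adipocytes. All 10 endothelial markers were below 0, with a median of -0.36, and so were all 8 NK markers, with a median of -0.27.

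The effect of the same dose in mice challenged with PBS was compared to ask whether the response depended on the allergic challenge. The PBS-challenged mice had 826 DEGs against their own controls, 3.61% of the genes tested. With array as a term, leaving out PBS-challenged exposed replicate 2 left the differences between challenges at the same 55 genes. That sample thus added nothing, and the PBS-challenged effect rested on exposed replicates 1 and 3. Of the 152 DEGs in OVA-challenged mice, 78 were DEGs in PBS-challenged mice as well and all 78 went in the same direction, which was 51.3% of the 152 and 9.44% of the 826. A further 74 did not pass in PBS-challenged mice, and for 0 of them did the test of the difference between challenges pass. The effects in the 2 challenges have no control sample in common, but they are not independent, since array terms link their samples. The count of differences between the challenges was the same, 64, without OVA-challenged exposed replicate 3 or without PBS control replicate 3. Clec4d changed by 2.61 in OVA-challenged and by 2.07 in PBS-challenged mice, and Orm1 by 3.35 and 4.83.

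The difference of these effects passed the test in 55 genes, 0.241% of those tested, and in 54 of them (0.236%) the fitted difference was below 0. All 55 were DEGs in PBS-challenged mice, 3 were DEGs in OVA-challenged mice (Spp1, Hmox1 and Mt2), and in all 55 the change was nearer to 0 in OVA-challenged mice. Spp1 rose by 4.49 in PBS-challenged mice, where the controls ran from 10.14 to 11.28 and the exposed samples were at 13.80, 13.45 and 13.91, and the difference was -3.12 ± 0.43 (adjusted p = 0.00338). In OVA controls Spp1 was already at a median of 13.26. Hmox1 rose by 3.38 in PBS-challenged mice and its difference was -1.99 ± 0.41 (adjusted p = 0.0335), and Mt2 rose by 3.01 with a difference of -1.92 ± 0.40 (adjusted p = 0.0399). The protease inhibitor genes Timp1 and Serpina3n had differences of -3.93 ± 0.75 (adjusted p = 0.0253) and -2.72 ± 0.53 (adjusted p = 0.0271). The gene above 0 was Pigt, a subunit of the transamidase that attaches lipid anchors, at 1.86 ± 0.35 (adjusted p = 0.0238). With dye, slide and position as terms in place of array, Spp1 (-2.36), Timp1 (-2.80) and Serpina3n (-1.99) remained past the threshold, and Hmox1 (-0.63), Mt2 (-1.18) and Pigt (0.14) did not.

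All 22 mitotic genes were DEGs and higher in PBS-challenged mice (median 1.83), where 2.53% of all genes were higher and 1.09% lower. In OVA-challenged mice none was a DEG, although all 22 were above 0 (median 0.40). The difference between the challenges passed for 14 of the 22. The acute phase list had 15 of 21 genes higher in PBS-challenged mice with a median of 1.51, against 6 of 21 with a median of 0.56 in OVA-challenged mice, and the difference passed for 1 of the 21. The red cell list had medians of -1.27 and -1.37 in the PBS-challenged and OVA-challenged mice, and the matrix list 1.2 and 0.80, with the difference past the test for 0 of the 6 and 1 of the 17 genes. Other lists had the higher median in OVA-challenged mice: neutrophil markers had medians of -0.07 after PBS and 1.37 after OVA, and interferon-induced genes 0.15 and 0.84. Goblet cell genes had medians of 0.64 after PBS and -0.50 after OVA. In these 3 lists the difference between challenges passed the test for 0 genes. Leaving out single samples moved the number of genes past the test of the difference between 0 (without exposed replicate 2) and 88 (without OVA control replicate 6). It was 2 without exposed replicate 1 or OVA control replicate 2. It was 4 without PBS control replicate 1 or PBS-challenged exposed replicate 1 or 3. Spp1 was the named gene kept without PBS control replicate 1. The 4 genes that passed without PBS-challenged exposed replicate 3 included none of the 55.

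**Figure D3:**
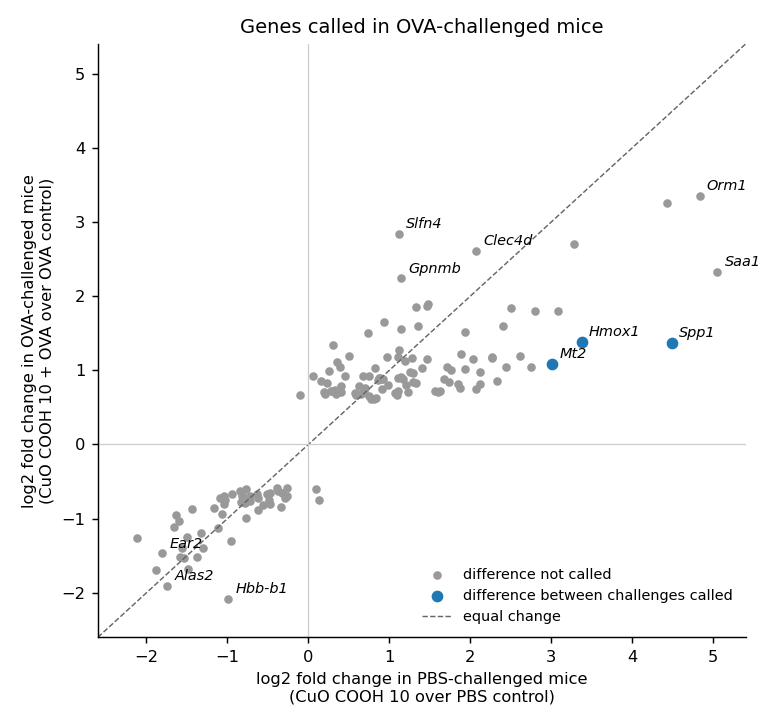
Log2 fold changes of the 152 DEGs of OVA-challenged mice (vertical axis) against those in PBS-challenged mice (horizontal axis), each against its own controls; points are genes, the dashed line marks equal change, and blue points are genes whose difference between challenges passed the test. In 149 of 152 genes both changes have the same sign, and the blue points are Spp1, Hmox1 and Mt2.

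Doses were compared within OVA-challenged mice, with dye, slide and array position as terms. Raising the dose from 10 to 40 gave 267 DEGs, 1.17% of the genes tested, with 130 higher (0.569%) and 137 lower (0.6%) at dose 40. Tnc was higher at dose 40 by 1.52 ± 0.19 (limma adjusted p = 3.48e-07), Retnlb, a goblet cell protein, by 2.26 ± 0.40 (adjusted p = 2.31e-04) and the basal cell keratin Krt15 by 1.5 ± 0.23. Clu was higher by 1.11 and Col1a2 by 0.71. Lower at dose 40 were Cd83, a marker of activated dendritic and B cells, by 1.68 ± 0.20, the club cell gene Scgb3a2 by 1.64 ± 0.41 and the B cell gene Ms4a1 by 1.58 ± 0.36. Retnlb had values of 10.22, 9.40 and 9.64 at dose 10 and 11.61 to 12.27 at dose 40.

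Several genes that fell at dose 10 were lower again at dose 40. Ear1 differed by -1.18 ± 0.27 (adjusted p = 0.00540), Ear2 by -1.23 ± 0.28, Ear10 by -1.22, Alas2 by -1.01, Hbb-bt by -1.52, Hbb-b2 by -1.17 and Hba-a1 by -1.18, and all 7 passed the test. Among the leading raised genes, Clu was higher at dose 40, as given above. Orm1, Clec4d and Gpnmb did not pass between these doses, nor did Mt2. Orm1 was at 0.63 (95% interval -0.22 to 1.48), Clec4d at 0.17 (-0.34 to 0.68), Gpnmb at -0.02 (-0.70 to 0.65) and Mt2 at 0.61 (0.01 to 1.22; adjusted p = 0.298). These differences share the dose 10 samples with the comparison against the OVA controls. With array as a term in place of slide and position, 4 genes passed.

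Between doses 2.5 and 10, 0 genes passed (0% of those tested), although 1454 had an unadjusted limma p under 0.05 and the smallest adjusted p was 0.254. Estimated differences were 1.38 for Orm1 (95% interval 0.53 to 2.24), 0.79 for Clec4d (0.28 to 1.30), -1.0 for Ear1 (-1.55 to -0.46), -0.81 for Alas2 (-1.39 to -0.24) and 0.67 for Mt2 (0.06 to 1.28), none of them past the adjustment. Exposed values of Orm1 ran from 8.53 to 9.20 at dose 2.5, from 9.54 to 10.76 at dose 10 and from 10.26 to 11.40 at dose 40, against controls of 6.83 to 7.41. Those of Ear1 ran from 12.13 to 12.35, from 10.74 to 11.54 and from 9.78 to 10.29, against 12.35 to 12.85.

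A single pair of materials was compared at the same labelled dose, CuO COOH 10 and uncoated CuO 10. The named difference is the carboxyl coating, but per the study the materials were dosed by total mass and also differ in copper content, particle size, surface charge and dissolution, which cannot be told apart here. Only 1 gene of 22851 passed, 0.00438%, and it was Spdef, the transcription factor that drives goblet cell differentiation. Its values were 10.21, 9.93 and 9.45 with CuO COOH, 11.30, 10.997 and 11.09 with CuO, and 10.19 to 10.85 in OVA controls, a difference of -1.27 ± 0.24 (95% interval -1.74 to -0.79; adjusted p = 0.0413). The call of Spdef was lost in 10 alternative settings and omissions, array as a term among them, and kept in 4. The 1 gene that passed without exposed replicate 3, or without CuO 10 replicate 1, was not Spdef. The goblet cell genes Muc5ac and Clca1 differed by -1.97 (-2.94 to -0.99; adjusted p = 0.235) and by -2.45 (-4.44 to -0.46; adjusted p = 0.995). Several leading genes had intervals that covered 0, with estimates of 0.28 for Orm1 (-0.57 to 1.13), 0.27 for Clec4d (-0.24 to 0.77), 0.22 for Mt2 (-0.38 to 0.83), -0.37 for Hmox1 (-1.12 to 0.37), -0.41 for Ear2 (-0.97 to 0.15) and 0.08 for Hbb-b1 (-0.63 to 0.79). Saa2 was higher with CuO COOH by an estimate of 1.5 (0.60 to 2.41), but its adjusted p was 0.506. The unadjusted intervals of Saa1 (0.19 to 2.07), Timp1 (0.15 to 1.81), Asprv1 (0.07 to 1.33), Clec4e (0.05 to 1.499) and Col1a2 (0.04 to 0.63) also lay above 0, each with an adjusted p of 0.9998. Intervals that cover 0 do not show that the materials act alike, since most of those given here also hold differences above the DEG threshold of 0.58 in size.

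**Figure D4:**
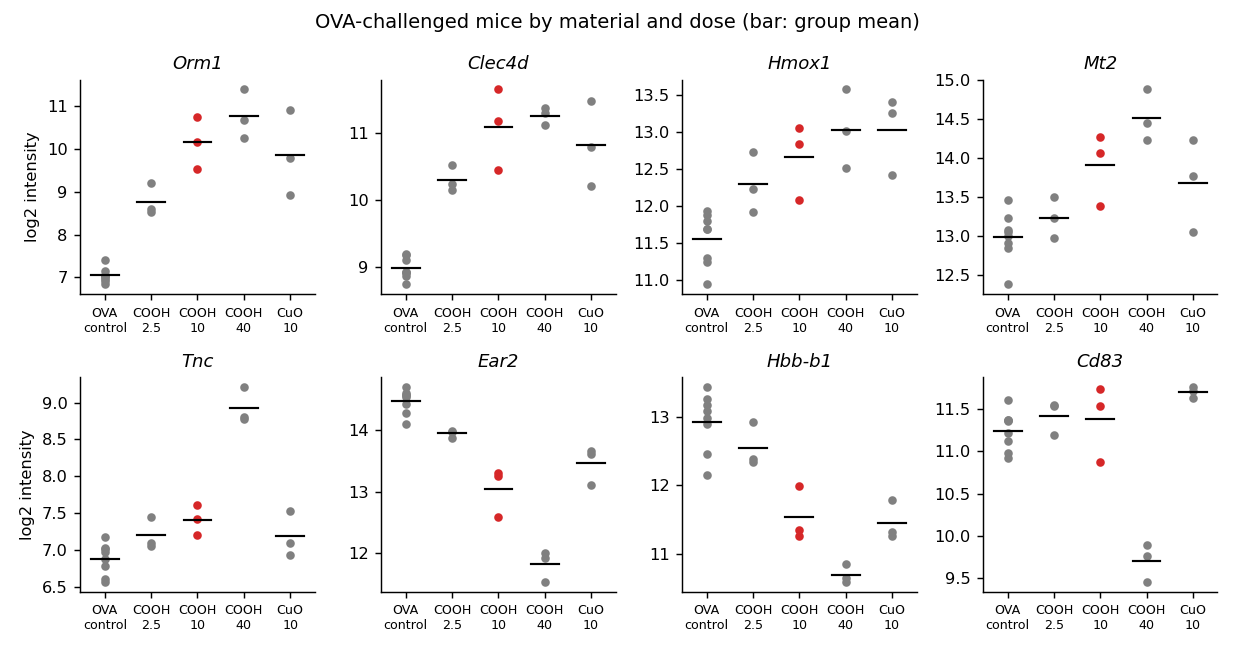
Log2 intensity of 8 genes in OVA controls, in CuO COOH at doses 2.5, 10 and 40 and in CuO at dose 10, all OVA-challenged, with dye, slide and array position removed; points are samples (red for dose 10), bars are group means, and each panel has its own vertical range. Orm1 runs from 6.83 to 7.41 in controls and from 10.26 to 11.40 at dose 40, and Ear2 from 14.09 to 14.70 and from 11.53 to 12.00.

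The number of DEGs depended on single samples. Leaving out exposed replicate 1, or OVA control replicate 2 on the same array, left 6 DEGs in each case. Leaving out exposed replicate 3 left 7, leaving out OVA control replicate 3 left 68, and leaving out exposed replicate 2 gave 227. None of the gene lists kept a DEG without exposed replicate 1, exposed replicate 3 or OVA control replicate 2 in that fit. With dye, slide and array position as terms there were 166 DEGs, of which 91 were among the 152. In that fit, 90 remained without exposed replicate 1, 80 without exposed replicate 3 and 116 without OVA control replicate 2, of which 57, 53 and 71 were among the 152. Of the 20 leading genes (12 higher and 8 lower), 18, 18 and 19 passed under these omissions. Of all 40 named DEGs, 27, 24 and 29 passed under them, against 32 in that fit with no omission. With only the 2 groups and dye as the term, 12 of the 20 and 15 of the 40 passed, and with median centring 2 of the 20. Over the 25 alternative settings and omissions, each leading gene described above lost its call in 1 (Clec4d) to 9 (Hbb-b1) of them, whereas Cxcl2 lost it in 15, Slc39a14 in 13, Hspa5 in 12, Mt2, Slc7a11, Gstm1 and Sftpd in 11 each and Spp1 in 10. All 40 named DEGs kept their direction in each of these fits, and 40, 37 and 40 of them kept it within slides 1, 2 and 3, where 2, 1 and 1 controls were present.

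**Figure D5:**
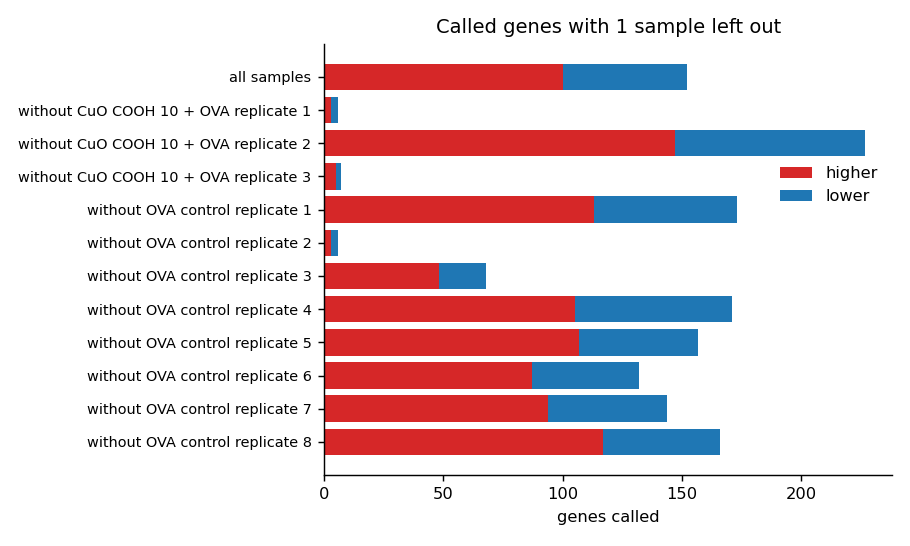
Number of DEGs (exposed against OVA control; red higher, blue lower) with all samples and after leaving out each of the 11 samples in turn, with dye and array as terms. The number is 6 without exposed replicate 1 or OVA control replicate 2, 7 without exposed replicate 3 and 227 without exposed replicate 2.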

How the data were processed

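Total lung RNA was hybridised to 2-colour Agilent mouse arrays. The authors' scanner files, made with Agilent Feature Extraction per the labels, hold foreground and background intensity per spot and flags for outlier and dim spots; the deposited value table holds log2 values whose ranks in each sample are those of the scanner intensities (rank correlation 1), so it carries no correction made per gene. Other deposited columns (spot position, probe and accession, flags) were used for names and filters. As in the study's methods, median foreground intensity was log2 transformed and quantile normalized over the 89 samples and probes were averaged per gene (56605 probes, of which 32994 had a gene and 23611 had none; 22911 genes, 60 of them left out because an outlier spot left no value in a sample, leaving 22851). Leaving out outlier and control spots was added here, and the study's ComBat step before averaging was not run, dye and array being terms of the fit instead.

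Models were fitted over all 26 groups with limma 3.58.1 (R 4.3.3; package data.table at version 1.17.8) with group, dye and array as terms, or, for comparisons of doses and materials, with group, dye, slide and position. DEGs passed 0.05 after Benjamini-Hochberg adjustment over all genes and changed by more than 0.58 on the log2 scale in either direction. The steps were tested on simulated data. Alternatives were other batch terms, a replicate block, normexp with an offset of 50, loess, median centring, a filter on dim probes, the deposited table and omission of single samples. The number of arrays limits the precision. The genes named were the 12 largest rises and 8 largest falls with groups apart, of which 1 is not reported here, at most 4 DEGs of each list, 16 fixed genes and the largest changes of the other comparisons; the rest are said to have been chosen after their values were seen. Samples and gene lists were chosen with earlier results of these data known. Promoter windows were searched with Python 3.11.15 and figures drawn with matplotlib 3.10.9.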

Additional observations from a re-analysis of the deposited data

Results flagged for a closer look

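Samples that stood apart from the rest of their group, by the ratio of the gap to the nearest sample to the whole range, were found in 3 of the genes named. OVA controls were examined in 62 genes, of which 1 was flagged. PBS controls were examined only in the named genes whose difference between challenges passed. Chance marks about 1 in 20 groups. Hmox1 in PBS control replicate 1 was at 8.14 and the nearest other PBS control at 9.86 (n = 7). Mt2 in PBS control replicate 4 was at 12.07 and the nearest at 11.54. Pigt was at 12.45 in PBS control replicate 1, with the nearest PBS control at 11.07, and at 11.71 in OVA control replicate 6, with the nearest OVA control at 11.22 (n = 8).

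The effect of CuO COOH 10 differed between OVA-challenged and PBS-challenged mice by the test of the difference itself (limma, Benjamini-Hochberg adjusted p) in 6 of the genes named. The differences in log2 fold change were -3.12 ± 0.43 for Spp1 (adjusted p = 0.00338), -1.99 ± 0.41 for Hmox1 (0.0335), -1.92 ± 0.40 for Mt2 (0.0399), -3.93 ± 0.75 for Timp1 (0.0253), -2.72 ± 0.53 for Serpina3n (0.0271) and 1.86 ± 0.35 for Pigt (0.0238). PBS control replicate 1, the sample that stood apart for Hmox1 and Pigt, shared its array with a PBS-challenged exposed sample, and without it Spp1 was the single gene of these 6 to pass. The part of that sample in the other differences was not tested further.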

How the results depend on the processing

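The 152 DEGs became 292 with array as a random block (correlation of the samples of an array 0.24), 278 with the samples of slides 1 to 3 alone, 30 with only the exposed and control groups and dye as the term, and 3 with median centring in place of quantile normalization, all 3 of them higher, against 65.8% higher among the 152. Without exposed replicate 2, 3 or 1 in the fit with dye, slide and position the numbers were 231, 80 and 90, a setting chosen after seeing the data. Omitting single samples gave 6 to 227 with array as a term and 80 to 231 with slide and position. Replicate numbers did not pair the samples, since the deviations of same-numbered samples correlated at 0.06, -0.11 and -0.13; with a replicate block the number was 191. The remaining settings gave 136 to 177. The 55 differences between challenges became 323 with slide and position, 313 with a random block, 329 with the replicate block and 0 with median centring, and 0 to 88 with a sample left out; median centring moved the median of all genes there by 0.19. The single DEG against CuO 10 became 0 with array as a term, with a random block, with the replicate block, with loess and with median centring. With a sample left out the number was 0 to 1, and the gene was not always Spdef. The 267 DEGs between doses 40 and 10 became 4 with array as a term and 119 with median centring, and 135 to 365 with a sample left out. The 0 between doses 10 and 2.5 became 3 with array as a term and 0 to 9 with a sample left out. Within slide 2, which holds 1 control, Spp1 (-0.26), Slc7a11 (-0.020) and Hspa5 (-0.23) changed sign, and the difference for Pigt was -0.012 with the replicate block. The causes were not tested. Signal over background limits the dimmer genes, such as Il13, Cxcl2 and Cxcr1.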
